A study of Homo sapiens with 4 samples.

Results

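The genes at least halved by SAMD9 are those whose deposited level, in CPM (a gene's counted reads scaled to the library's total), was 1 or more in both empty vector libraries and whose larger SAMD9 value was under 0.5 of the smaller empty vector value. They were chosen by these measured levels alone. Of 14702 genes at or above 1 CPM in both empty vector libraries, 216 met this rule (1.47%), and 195 (1.33%) remained once 8 histone genes, 8 zinc finger genes with ZNF symbols and 5 single genes (GH1, GH2, CD79B, PER2 and TGFB2) were set aside. Since the rule used all 4 libraries, the levels and fold changes of the 195 genes are given as descriptions, with no test. Of the 195, 156 carried a gene symbol and 39 were known by an identifier or clone name alone.

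Total RNA of A549, a human lung carcinoma epithelial cell line, was sequenced after depletion of ribosomal RNA in 4 libraries. Both groups were transfected with 1 µg of plasmid and collected at 24 hr: 2 libraries received the empty plasmid pCMV6-Entry, and 2 received a plasmid for SAMD9 carrying a Myc-DDK tag. Plasmid expression in a transfected culture is transient and differs from cell to cell, and the libraries average over all cells, so fewer cells expressing a gene and less RNA per cell cannot be told apart. The labels do not say whether the libraries of a group came from separate cultures, so the spread between them, and any p-value below, may be technical.

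SAMD9 itself stood at 15.2 and 12.7 CPM with empty vector and at 5549 and 5995 CPM with SAMD9, counting plasmid and endogenous transcripts alike. Library totals ran from 29301854 to 39670083 counts. In edgeR's quasi-likelihood test, 27.5% of 19814 tested genes passed a Benjamini-Hochberg adjusted p below 0.05, 15.3% higher and 12.2% lower with SAMD9. The summed level of 15 epithelial and lung markers lay between 13644 and 14813 CPM in every library, that of 12 leukocyte markers between 7.0 and 7.20 CPM, and that of 12 fibroblast and endothelial markers, none of which reached 1 CPM in all libraries, between 1.92 and 2.17 CPM. Of the deposited levels, the median gene at or above 1 CPM had a log2 ratio of -0.21 between SAMD9 and empty vector. The trimmed mean of M-values (TMM) scaling used in edgeR brought that median to a log2 fold change of -0.03.

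SAMD9 is an interferon-inducible cytoplasmic protein with antiviral and growth-restraining activity. Several families with members among the halved genes act at the cell surface. Noggin and gremlin are secreted proteins that bind bone morphogenetic proteins (BMPs) and keep them from their receptors, whose signalling switches on the ID genes. Potassium channels let potassium ions leave the cell and so set its membrane potential, and calcineurin is a calcium-activated phosphatase that sends NFAT transcription factors to the nucleus.

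Promoters of 4 halved genes of these families and of glycogen metabolism, from RefSeq on GRCh38.p14, are shown as examples of these start regions. Each runs 5′ to 3′ along its gene from 250 bases before to 50 after the annotated start. Capitals mark matches on either strand to the motifs searched: 2 GC boxes (GGGCGG) in KCNH1 (chr1:211134099-211134398, minus strand), 10 in INHBB (chr2:120345886-120346185, plus strand), a cAMP response element (TGACGTCA) in KCNF1 (chr2:10911684-10911983, plus strand), and a CCAAT box and an E-box (CACGTG) in PPP1R3C (chr10:91633022-91633321, minus strand).
KCNH1: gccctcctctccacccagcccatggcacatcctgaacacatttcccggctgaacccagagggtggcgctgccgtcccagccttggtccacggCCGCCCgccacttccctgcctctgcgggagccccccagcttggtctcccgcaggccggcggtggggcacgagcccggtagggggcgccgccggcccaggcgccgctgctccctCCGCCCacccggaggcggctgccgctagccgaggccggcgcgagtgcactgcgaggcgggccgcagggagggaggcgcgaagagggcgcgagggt
INHBB: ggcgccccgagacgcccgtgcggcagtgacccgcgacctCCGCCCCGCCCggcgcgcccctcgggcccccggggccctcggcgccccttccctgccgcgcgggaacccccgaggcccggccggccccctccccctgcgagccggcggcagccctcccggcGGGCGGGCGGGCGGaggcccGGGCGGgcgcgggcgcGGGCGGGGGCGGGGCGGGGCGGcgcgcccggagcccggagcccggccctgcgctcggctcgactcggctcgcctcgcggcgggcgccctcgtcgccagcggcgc
KCNF1: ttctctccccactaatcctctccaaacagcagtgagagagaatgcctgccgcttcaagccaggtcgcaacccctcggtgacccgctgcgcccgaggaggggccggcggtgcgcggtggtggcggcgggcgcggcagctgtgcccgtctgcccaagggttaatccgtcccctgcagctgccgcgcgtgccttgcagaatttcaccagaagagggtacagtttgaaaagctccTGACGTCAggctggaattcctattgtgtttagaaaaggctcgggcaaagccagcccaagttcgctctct
PPP1R3C: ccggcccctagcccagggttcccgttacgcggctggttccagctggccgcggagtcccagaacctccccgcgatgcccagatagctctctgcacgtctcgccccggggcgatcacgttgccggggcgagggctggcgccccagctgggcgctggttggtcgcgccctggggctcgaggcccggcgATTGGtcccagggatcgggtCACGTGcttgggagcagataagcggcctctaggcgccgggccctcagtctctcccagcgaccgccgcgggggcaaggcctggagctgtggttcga

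The halved genes with a listed promoter held common motifs about as often as other expressed genes. RefSeq promoters were matched for 110 of the 195 genes and for 10549 of the genes at or above 1 CPM, and where several starts were listed the 5′-most was used. A GC box occurred in 66.4% of the halved genes' promoters and 70.2% of the others at that level or above, a CCAAT box in 30.9% and 36.5%, a TATA box (TATAAA) in 4.55% and 5.65%, and an E-box in 7.27% and 9.93%. The cAMP response element occurred in 3.64% and 3.26%, an AP-1 site (TGACTCA) in 4.55% and 3.0%, a TEAD site (GGAATG) in 11 of 110 and in 10.8%, an interferon-stimulated response element in 1.82% and 2.62%, and a SMAD element (CAGACA) in 13.6% and 12%. Among coding genes alone (92 and 10050 promoters) the order turned for the cAMP response element, at 2.17% and 3.25%, and for AP-1, at 2.17% and 2.83%, and the interferon-stimulated response element stood at 1.09% and 2.63%. Median GC content was 66.3% against 65.3% over all matched genes. The median number of CpG sites per 300 bases was lower, at 22.5 against 26.0, and among coding genes at 24.0 against 26.0. These matches are descriptions of letters in a window, not of binding, and each larger set includes the halved genes.

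The halved genes were mostly weakly expressed. Their median level was 3.52 CPM with empty vector and 1.26 CPM with SAMD9, whereas the median of all genes at or above 1 CPM was 23.9 and 21.5 CPM. Per length, in RPKM (CPM per kilobase of exon), the median level with empty vector was 1.4 against 5.46. Of genes averaging 1 to 2 CPM with empty vector 4.75% were halved (63 genes), of those at 2 to 5 CPM 2.70% (52), at 5 to 10 CPM 1.56% (24), at 10 to 50 CPM 0.814% (43) and above 50 CPM 0.281% (13). Fewer reads stood behind them: the smaller empty vector count was under 50 for 26.7% of the halved genes and for 8.01% of all genes at that level. None had a count of 0 in any library.

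**Figure D1:**
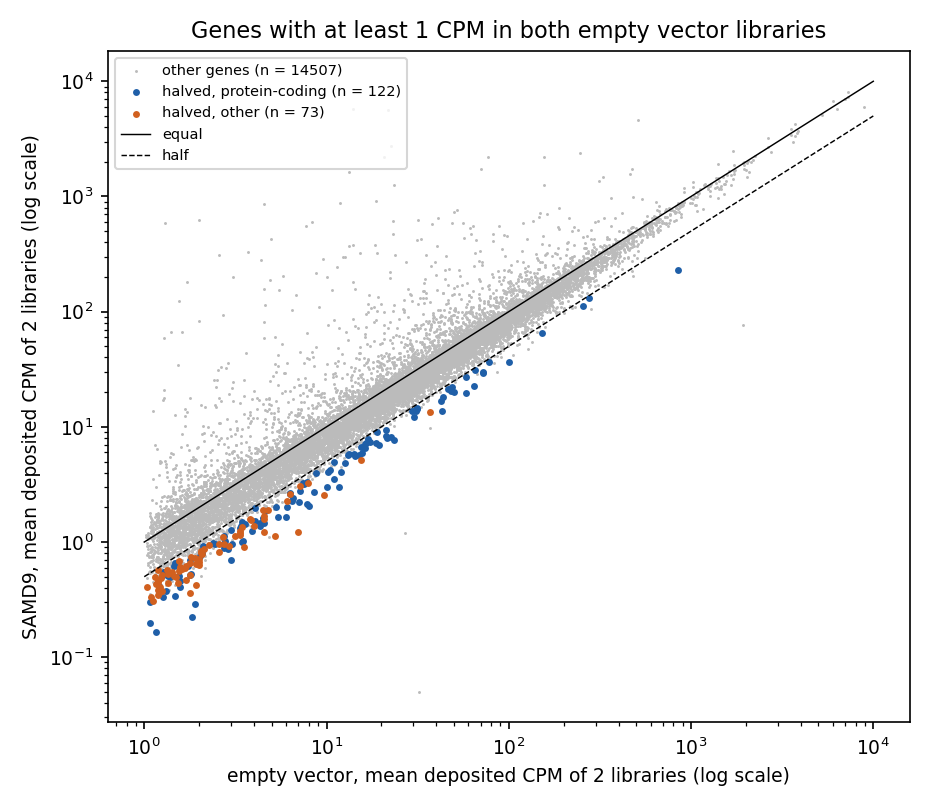
Mean deposited CPM with SAMD9 (vertical) against empty vector (horizontal), each over 2 libraries and on log scales, for the 14702 genes at or above 1 CPM in both empty vector libraries. The 122 protein-coding halved genes (blue) spread along the dashed line, which marks a ratio of 0.5, up to ABLIM1 near the right, and the 73 others (orange) crowd the lower left.

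The median log2 fold change of the halved genes in the edgeR fit was -1.21, and of the deposited levels -1.38. All 195 could be tested, and 165 were among the genes called lower, beside the 12.2% of all tested genes that were. Nothing can be read from that share, because the same libraries chose the genes. The 30 that were not called averaged between 1.04 and 2.11 CPM with empty vector. The rule depends on scaling: with TMM-normalised CPM, 81 of the 195 genes still had the larger SAMD9 value under 0.5 of the smaller empty vector value, 47 of them protein-coding. In the other direction, 445 genes were at least doubled by the mirrored rule on deposited levels.

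The ratio on which the rule turns ran from 0.204 upward, with a median of 0.446. Just inside the threshold were PRMT9, an arginine methyltransferase, at a ratio of 0.499, CFAP53, a cilium protein, at 0.499 and SNORA3B, a small nucleolar RNA, at 0.50 after rounding. Just outside lay SP9 at 0.502, SWSAP1 at 0.503 and NPBWR1 at 0.504. NPBWR1 had 1.5 and 2.58 CPM with empty vector and 0.756 and 0.260 with SAMD9, so its groups did not overlap although it was left out. In 66.7% of the halved genes SAMD9 replicate 2 lay below SAMD9 replicate 1, against 54.3% of all genes at or above 1 CPM.

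Long non-coding RNAs made up a larger part of the halved genes than of the expressed transcriptome. GENCODE 29 annotated 122 of the 195 (62.6%) as protein-coding, against 83.9% of genes at or above 1 CPM, so 0.989% of expressed coding genes were halved. Antisense RNAs numbered 26 (5.41% of those expressed), long intergenic RNAs 21 (5.82%), other long non-coding RNAs 6 (3.26%), pseudogenes 13 (1.15%) and small nucleolar or nuclear RNAs 3 (15%), and 4 genes were not in that release. These shares depended on level. At 1 to 2 CPM, 6.67% of long non-coding and 4.33% of coding genes were halved. The gap was wider at 2 to 5 CPM, where the shares were 5.17% (20 of 387) and 2.47% (27 of 1093), and at 5 to 10 CPM, where they were 5.07% (7 of 138) and 1.47% (17 of 1158). At 10 to 50 CPM, 1 of 111 long non-coding and 41 of 4957 coding genes were halved.

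**Figure D2:**
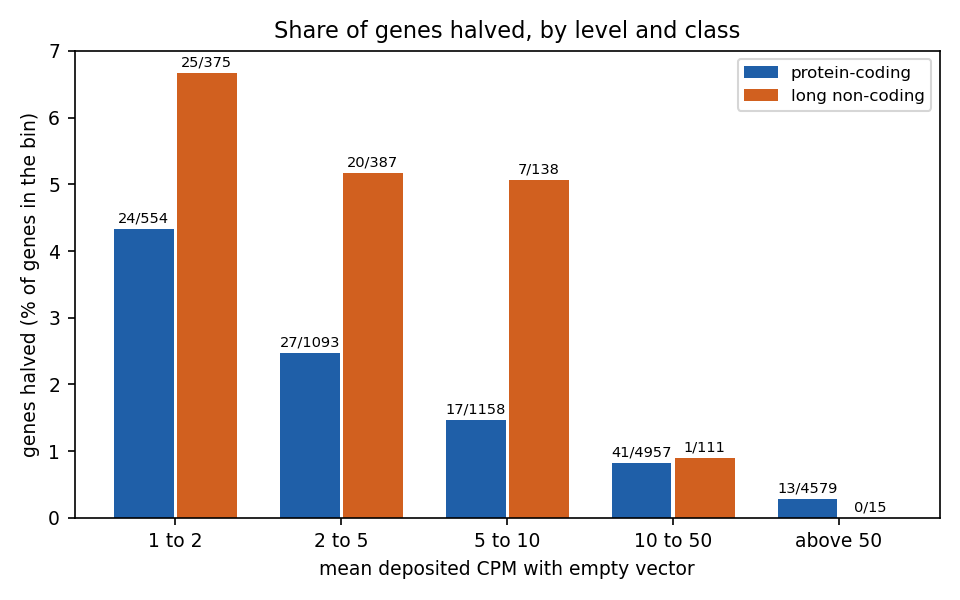
Share of expressed genes that were halved (vertical, % of genes in the bin) by mean CPM with empty vector (horizontal), for coding (blue) and long non-coding genes (orange), with halved over all genes printed above each bar. Both shares shrink with level, and the long non-coding bars are taller up to 10 CPM, with 25 of 375 halved in the lowest bin.

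Exonic lengths were shorter in the group as a whole, and less so once biotype was held fixed. The median of the deposited gene length, which sums exonic bases, was 3722 bases (quartiles 2112 and 6149, range 107 to 30111) against 4542.5 for all genes at or above 1 CPM. Among coding genes the medians were 4889 and 5100 bases, and among long non-coding genes 2389 and 2264. By bins, 2.38% of expressed genes of up to 1000 bases were halved, 1.52% at 1000 to 2000, 1.48% at 2000 to 4000, 1.10% at 4000 to 8000 and 1.09% above 8000. Coding halved genes had a median of 8.5 separate exonic blocks against 11, and a genomic span of 38746.5 bases against 33423. By chromosome, chromosome 1 held 24 halved genes, chromosome 11 held 20 (2.5% of its expressed genes), chromosome 20 held 11 (2.72%) and the X chromosome 1 (0.196%). Pairs within 100 kb of each other were few, at 7.

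Each of the following groups of functions was put together after the list of halved genes was known, and 97 of the 195 genes were placed in 11 groups. The largest were receptors, ligands and intracellular signalling (27 genes), transcription and chromatin (18), and enzymes of metabolism (10). Where other genes of a pathway or family are counted below, 15.3% of all tested genes rose and 12.2% fell. Unless stated otherwise, levels are deposited CPM in empty vector replicates 1 and 2 and then SAMD9 replicates 1 and 2, and log2 fold changes are those of edgeR with their standard error (SE).

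Secreted BMP antagonists among the halved genes included GREM1 and NOG. GREM1, which encodes gremlin 1, had 8.09 and 6.08 CPM with empty vector and 1.87 and 2.60 with SAMD9 (log2 fold change -1.49, SE 0.24). NOG, the noggin gene, had 3.99 and 3.85 against 1.59 and 0.911 CPM (-1.44, SE 0.31). Per length NOG was the higher of the pair, at 2.07 RPKM with empty vector and 0.660 with SAMD9, against 0.485 and 0.153 RPKM for GREM1. INHBB, which encodes the beta B subunit of activins and inhibins, had a higher level, with 66.0 and 79.0 against 32.0 and 27.5 CPM (-1.09, SE 0.10).

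Other genes of the BMP list moved in both directions. Outside the halved genes, 18 list genes were tested, of which 7 rose, 3 fell and 8 did not pass (edgeR quasi-likelihood test, adjusted over all genes). FST, which encodes follistatin, an activin-binding protein, rose from 26.6 to 103 CPM (log2 fold change 2.15, SE 0.08, edgeR adjusted p = 1.39e-15). ID4 rose from 12.5 to 36.1 CPM (1.72, SE 0.11, edgeR adjusted p = 4.5e-11), and the type II receptor gene BMPR2 from 68.9 to 114 CPM (0.91, SE 0.07, edgeR adjusted p = 4.3e-10). ID1, ID2 and ID3, named here after their values were seen, had log2 fold changes of 0.44, 0.30 and 0.42 (SE 0.07, 0.09 and 0.07), and all 3 were called higher. ID2 was not called under total-count scaling, at 0.12, or without SAMD9 replicate 2, at 0.24. Of the ligands, BMP2 rose (1.03, SE 0.20) and BMP6 fell (-0.70, SE 0.17), also chosen after the fact. The receptor gene BMPR1B fell (-0.30, SE 0.08). In the list of TGF-beta and SMAD targets, SMAD6 (-0.39, SE 0.08) and SMAD7 (-0.53, SE 0.09) fell. These 3 were chosen after the fact as well, and of the 19 tested genes of that list 6 rose and 7 fell. Whether BMP signalling changed was not tested.

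**Figure D3:**
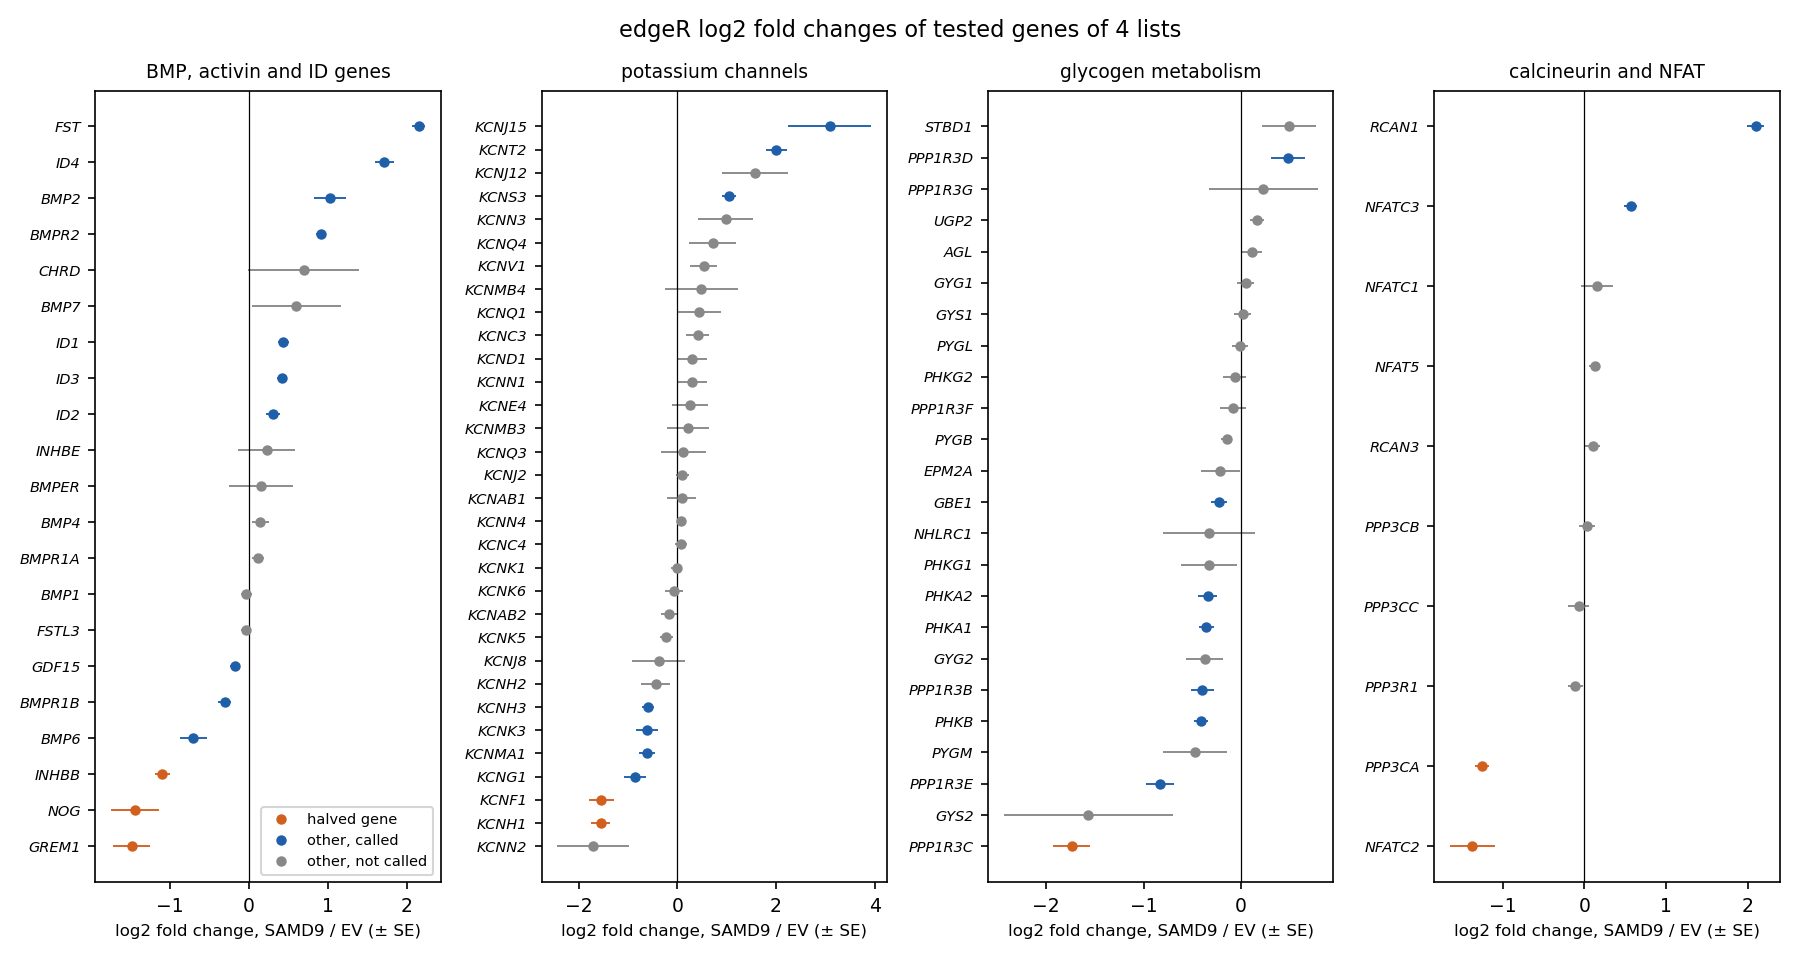
Log2 fold changes (SAMD9 over empty vector, edgeR, horizontal, bars ± SE) of tested genes in 4 lists. Halved genes (orange) lie toward the low end of each list, as the rule favours, beside list genes called higher or lower (blue) and not called (grey). Among potassium channels KCNN2, not halved and not called, is lowest at -1.70. FST at 2.15 and RCAN1 at 2.10 are the highest of their lists.

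Ion channels made up 7 of the 195 genes. KCNH1, a voltage-gated potassium channel of the ether-a-go-go family, had 9.11 and 11 CPM with empty vector and 2.80 and 3.25 with SAMD9 (-1.55, SE 0.19). KCNF1, an electrically silent potassium channel subunit, had 5.56 and 5.28 against 1.61 and 1.66 CPM (-1.54, SE 0.25). In both of these the 2 SAMD9 libraries lay close together, and well below the empty vector ones as the rule requires. KCNJ11, the inward rectifier of ATP-sensitive potassium channels, had 4.13 and 4.01 against 1.97 and 1.98 CPM (-0.85, SE 0.26). Further channel genes were TRPC6, a calcium-permeable cation channel (5.87 and 4.68 against 2.27 and 1.76 CPM), the glutamate receptor subunit GRIN2B (1.81 and 1.81 against 0.832 and 0.228 CPM) and the polycystin relative PKD1L2, annotated as a polymorphic pseudogene (5.12 and 3.98 against 1.24 and 1.20 CPM).

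The wider channel families did not share one direction. Of 30 further potassium channel genes tested, 3 rose, 4 fell and 23 did not pass, beside 27.5% of all genes called. KCNT2 rose from 2.14 to 7.54 CPM (2.01, SE 0.22, edgeR adjusted p = 1.53e-07), KCNS3, another silent subunit, rose from 7.20 to 13.1 CPM (1.05, SE 0.15, edgeR adjusted p = 6.63e-06), and KCNH3 fell from 26.2 to 15.2 CPM (-0.60, SE 0.12, edgeR adjusted p = 0.000507). Of 15 other polycystin and TRP channel genes, 2 rose and 3 fell, among them TRPM4 (0.81, SE 0.10), PKD1 (-0.36, SE 0.06) and TRPC1 (-0.64, SE 0.12). Among transporters, the iron exporter gene SLC40A1 had 6.65 and 8.91 against 2.95 and 1.37 CPM, and the sodium-proton exchanger SLC9A2 15.6 and 15.3 against 7.56 and 5.89 CPM. The bicarbonate transporter SLC4A8 had 6.93 and 7.98 against 3.05 and 3.45 CPM.

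Intracellular signalling genes included a phosphatase and its target. PPP3CA, the alpha catalytic subunit of calcineurin, was one of the more abundant halved genes, with 106 and 93.8 CPM with empty vector against 39.6 and 33.8 with SAMD9 (-1.26, SE 0.09). NFATC2, a transcription factor that calcineurin activates, had 4.30 and 4.33 against 1.61 and 1.30 CPM (-1.37, SE 0.27). A list of calcineurin and NFAT genes was added after these genes were seen, and of its 8 other tested genes 2 rose and 6 did not pass. RCAN1, which encodes a regulator that binds calcineurin, rose from 16.2 to 60.8 CPM (2.10, SE 0.10, edgeR adjusted p = 1.13e-13), and NFATC3 from 54.7 to 71.2 CPM (0.57, SE 0.08, edgeR adjusted p = 3.55e-06). The remaining catalytic subunits PPP3CB (0.03, SE 0.10) and PPP3CC (-0.07, SE 0.13) were not called, and the sign of PPP3CB turned under total-count scaling (-0.16).

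Receptors and ligands made up much of the rest of the signalling group. EPHB3, an ephrin receptor, had 4.40 and 4.23 against 1.44 and 1.33 CPM (-1.45, SE 0.27). The adenosine A1 receptor gene ADORA1 had 14.9 and 24.0 against 7.29 and 6.63 CPM, with the empty vector libraries well apart, and the oxytocin receptor gene OXTR had 17.4 and 15.3 against 7.51 and 7.02 CPM. BDNF, a neurotrophin, had 20.9 and 21.6 against 10.4 and 8.29 CPM (-0.99, SE 0.13), and UCN, the stress peptide urocortin, 1.57 and 1.53 against 0.529 and 0.488 CPM (-1.41, SE 0.47). UNC5CL, a death domain protein, had 2.70 and 3.31 against 0.681 and 0.715 CPM (-1.91, SE 0.36), though 747 of its exonic bases are shared with OARD1 on the same strand. RGCC, a regulator of the cell cycle, had 1.43 and 1.72 against 0.429 and 0.390 CPM (-1.74, SE 0.49).

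LFNG, a glycosyltransferase that modifies Notch receptors, had 10.5 and 11.4 CPM with empty vector against 3.91 and 3.15 with SAMD9. Of 21 other tested Notch genes, 7 rose and 3 fell. HES4 rose from 17.0 to 99.9 CPM (2.74, SE 0.10, edgeR adjusted p = 2.24e-16) and the ligand gene DLL1 from 0.116 to 4.71 CPM (5.49, SE 0.41, edgeR adjusted p = 3.19e-10), whereas HES1, chosen after its value was seen, fell (-0.78, SE 0.13). Other halved signalling genes were the adaptor CARD10 (56.5 and 59.5 against 27.8 and 26.0 CPM) and CASTOR2 of the mTORC1 pathway (45.6 and 50.9 against 22.3 and 18.7 CPM). Of the 31-base words of CASTOR2, 33.2% are also found in other genes. RGS3, which shortens G protein signals, had 30.6 and 31.1 against 14.7 and 12.9 CPM, and the MAP kinase phosphatase DUSP7 16.5 and 17.1 against 8.04 and 7.71 CPM.

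Transcription and chromatin genes averaged from 1.82 to 153 CPM with empty vector. NACC2, a transcriptional repressor, had 150 and 156 CPM with empty vector against 66.2 and 64.6 with SAMD9 (-1.04, SE 0.07), and AHDC1, a DNA-binding protein, 66.1 and 78.3 against 28.6 and 29.5 CPM (-1.13, SE 0.09). CXXC5, which binds unmethylated CpG, had 40.9 and 45.7 against 14.4 and 12.9 CPM (-1.47, SE 0.11), and TET1, which oxidises methylated cytosine and carries the same kind of zinc finger, 8.16 and 8.94 against 2.80 and 2.60 CPM (-1.47, SE 0.20). The coactivator MN1 had 43.0 and 43.9 against 18.3 and 17.8 CPM, and SPDEF, an epithelial ETS factor, 28.8 and 31.3 against 13.5 and 11.1 CPM. Developmental factors were ZIC2 (18.6 and 18.7 against 7.18 and 7.28 CPM), HOXC13 (13.9 and 16.4 against 5.29 and 6.02 CPM) and HLX (13.8 and 12.7 against 5.80 and 5.72 CPM). VSX1, a retinal homeobox factor, was near the lowest measurable level, with 1.98 and 1.65 against 0.378 and 0.065 CPM (-2.75, SE 0.59).

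HLF, a PAR bZIP factor of the circadian output, had 2.25 and 1.53 CPM with empty vector against 0.454 and 0.130 with SAMD9 (-2.44, SE 0.54). Of 13 other tested clock output genes, 3 rose and 4 fell, with NR1D2 (0.58, SE 0.08) and NR1D1 (0.63, SE 0.12) higher and CRY1 lower (-0.66, SE 0.11). VGLL3, a cofactor of TEAD factors, had 10.2 and 10.1 against 3.86 and 4.23 CPM. Of 19 YAP and TEAD target genes outside the group, 5 rose and 6 fell, counting TGFB2, which met the ratio rule and was set aside by name. The kinase gene NUAK2 rose from 152 to 390 CPM (1.55, SE 0.06, edgeR adjusted p = 3.93e-15) and the LIM protein gene AJUBA fell from 350 to 169 CPM (-0.86, SE 0.06, edgeR adjusted p = 1.3e-10).

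ABLIM1, an actin-binding LIM protein, had the highest level of all halved genes with empty vector, in CPM and in RPKM. It stood at 967 and 720 CPM with empty vector against 240 and 221 with SAMD9 (-1.68, SE 0.09), or 85.4 and 23.3 RPKM on average, and its empty vector libraries lay farther apart than its SAMD9 libraries. MTSS2, a membrane-bending actin regulator, followed with 272 and 281 against 133 and 131 CPM (-0.88, SE 0.06), and averaged 26.4 RPKM with SAMD9, above ABLIM1. The smooth muscle protein smoothelin (SMTN) had 46.3 and 50.7 against 22.5 and 22.1 CPM, and the filamin-binding FILIP1 40.7 and 44.3 against 19.2 and 14.5 CPM. MYPN, myopalladin of the sarcomere, had 23.0 and 19.2 against 8.87 and 7.80 CPM, and the kinesin KIF21B 14 and 14.3 against 5.24 and 6.28 CPM. SOGA1, a microtubule-associated protein, had 246 and 265 against 114 and 111 CPM (-0.99, SE 0.06).

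**Figure D4:**
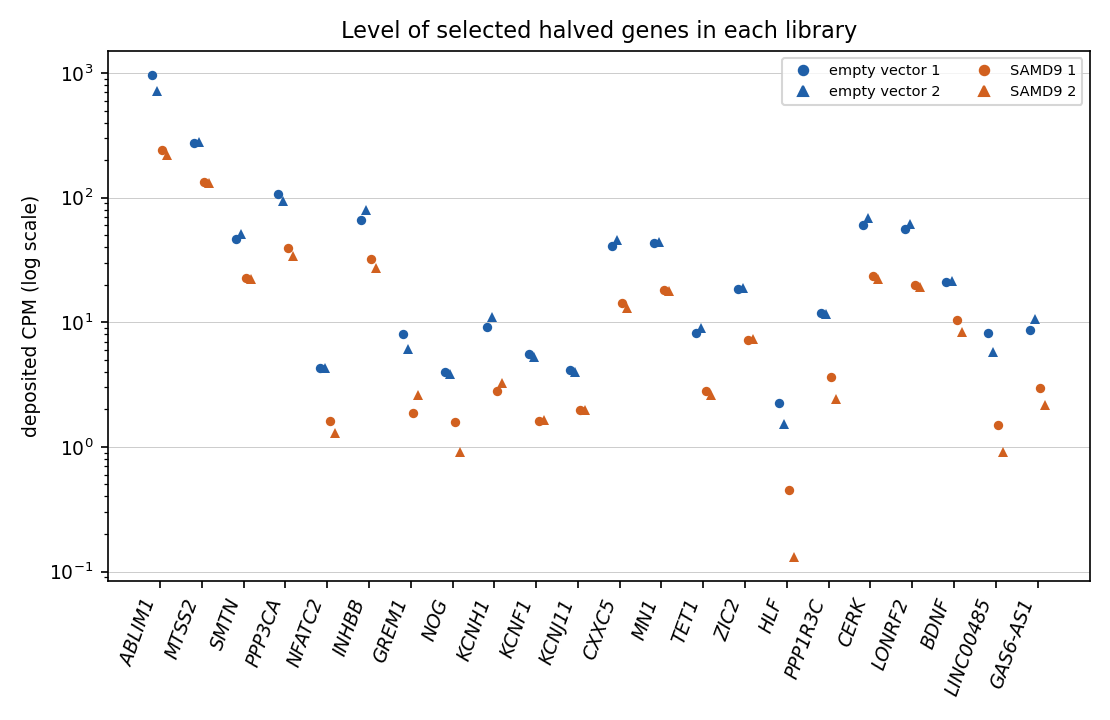
Deposited CPM (vertical, log scale) of selected halved genes in each library, empty vector in blue and SAMD9 in orange, replicate 1 as circles and replicate 2 as triangles. The groups do not overlap for any gene, as the rule requires; ABLIM1 is highest, and HLF falls to 0.130 CPM in SAMD9 replicate 2.

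Metabolic enzymes ranged from lipid to glycogen pathways. PPP1R3C, which brings protein phosphatase 1 to glycogen and so promotes its synthesis, had 11.8 and 11.6 CPM with empty vector against 3.66 and 2.41 with SAMD9 (-1.74, SE 0.19). Of 23 other tested glycogen genes, 6 fell, 1 rose and 16 did not pass, beside 12.2% of all tested genes lower and 15.3% higher. PPP1R3E, a relative of PPP1R3C, fell from 16.6 to 8.18 CPM (-0.83, SE 0.14, edgeR adjusted p = 8.86e-05), and the phosphorylase kinase subunit genes PHKB (-0.41, SE 0.08) and PHKA1 (-0.36, SE 0.08) fell by less. CERK, the ceramide kinase gene, had 60.0 and 68.8 against 23.5 and 22.1 CPM (-1.31, SE 0.09), and AGPAT5, an acyltransferase of phospholipid synthesis, 76.7 and 78.2 against 37.4 and 35.6 CPM (-0.90, SE 0.08). B4GALT6, a lactosylceramide synthase, had 18.2 and 16.4 against 7.29 and 7.54 CPM, and the xenobiotic enzyme CYP1A1 7.03 and 6.01 against 2.75 and 2.11 CPM. ENTPD8, a nucleotidase, had the lowest ratio of all, on few reads, 35 in either empty vector library and 4 and 7 in the SAMD9 libraries (log2 fold change -2.64, SE 0.67).

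Ubiquitin ligases and their adaptors contributed 9 genes. LONRF2, a RING-type ligase, had 56.0 and 61.0 CPM with empty vector against 19.9 and 19.2 with SAMD9 (-1.39, SE 0.09). UBE4B, which extends ubiquitin chains, had 64.8 and 66.0 against 31.7 and 30.5 CPM. FBXO43, an inhibitor of the anaphase-promoting complex, had 5.70 and 6.33 against 1.69 and 1.59 CPM (-1.68, SE 0.24). The SOCS-box adaptor SPSB2 and the RING protein SH3RF2 had nearly the same levels. SPSB2 stood at 30.1 and 32.5 against 13.9 and 14.5 CPM, and SH3RF2 at 30.1 and 32.7 against 14.8 and 14.3 CPM. On the opposite strand, SPSB2 shares 228 exonic bases with LRRC23 (-0.08, SE 0.15, not called) and 228 with RPL13P5 (-0.85, SE 0.21, called lower).

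Adhesion and matrix genes were mostly weak. The proteoglycan brevican (BCAN) was the strongest, with 11.7 and 14.7 CPM with empty vector against 5.77 and 5.63 with SAMD9. It shares 328 exonic bases with an opposite-strand gene known by identifier alone (34.0 CPM with empty vector, -0.91, SE 0.11). With BCAN-AS2, also on the opposite strand, it shares 354 (8.79 CPM, -0.90, SE 0.18). Both were called lower, and the strand setting is not given, so reads of the shared bases cannot be told apart. The protocadherin genes PCDHA2 and PCDHA3 share 3428 exonic bases with each other and 2866 with other genes of their cluster. Reads of those shared bases cannot be told apart between the genes. PCDHAC2, in the same cluster, rose (1.28, SE 0.10). INSYN2B, a relative of an inhibitory synapse protein, had 8.57 and 7.38 against 2.09 and 2.02 CPM (-1.76, SE 0.21), while of 20 other synaptic genes tested 2 rose, none fell and 18 did not pass.

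Among the genes not annotated as protein-coding, LINC00485 on chromosome 12 (102809280 to 102824399, minus strand, GRCh38 as the files give it) was the most reduced. It had 8.19 and 5.79 CPM with empty vector against 1.51 and 0.911 with SAMD9 (-2.31, SE 0.27). GAS6-AS1 had 8.67 and 10.7 against 2.97 and 2.18 CPM (-1.71, SE 0.21), MYRF-AS1 3.0 and 4.04 against 0.807 and 1.01 CPM (-1.78, SE 0.33), and LINC02331 4.68 and 4.45 against 1.71 and 1.43 CPM. All 4 RNAs were low, and as the rule requires no SAMD9 value reached an empty vector value. GAS6-AS1 shares 421 exonic bases with GAS6 on the opposite strand (8.42 CPM with empty vector, 0.18, SE 0.17, not called). It shares 62 with TMEM255B on the same strand, and reads of the shared bases cannot be told apart. Per length, the small nucleolar RNA SNORA71A was the highest, at 20.1 RPKM with empty vector and 8.26 with SAMD9 over its 134 bases. LINC01106 shares 92.6% of its 31-base words with other genes, and 19 of the 191 halved genes with a GENCODE transcript share more than 20%, so reads of these could have been assigned elsewhere.

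Many of the non-coding halved genes lie beside or within a coding gene, and the levels of those partners leaned downward. A partner was a coding gene that overlaps the halved gene or starts within 5000 bases of its start on the other strand. Of the 73 halved genes without coding annotation, 36 had such a partner, and 1 of the 44 partners, B4GALT6, was itself halved. Of the 40 other partners tested, 16 fell, none rose and 24 did not pass in edgeR. That is 40.0% lower, beside 12.2% of all tested genes and 17.3% of coding genes at or above 1 CPM. Under total-count scaling 30 of the partners were lower, and without SAMD9 replicate 2 the number was smaller than 16. Total-count scaling left the median gene at or above 1 CPM at a log2 ratio of -0.21. Under it 83 of 257 tested list genes outside the group fell, against 49 in the fit reported. The shares of all genes called lower in these alternatives are not given, so their counts cannot show whether partners fell more often than other genes. An unfiltered fit and the fit with a replicate block each called 1 partner higher, and 2 were higher without empty vector replicate 2. The strand setting of the counting is not given in the sources used here, so reads of a pair that shares exons cannot be told apart. Of the 22 partners that share no exonic base with any halved gene they partner, 9 fell and none rose, with a median log2 fold change of -0.24. Reads from introns of unspliced transcripts could not be examined in gene counts.

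Of the partners without shared exonic bases, HKDC1, a hexokinase-type enzyme gene, fell from 181 and 180 CPM to 115 and 102 CPM (-0.55, SE 0.07, edgeR adjusted p = 9.77e-07), and the homeobox gene HOXC6 from 10.5 and 8.49 to 5.02 and 3.28 CPM (-0.99, SE 0.20, edgeR adjusted p = 0.000587). PRR7 fell from 33.6 and 39.4 CPM to 19.7 and 19.1 CPM (-0.72, SE 0.11, edgeR adjusted p = 1.18e-05) beside PRR7-AS1 (8.26 and 7.67 against 3.20 and 3.28 CPM). LMCD1, a LIM and cysteine-rich protein gene, fell from 21.8 and 21.9 to 11.8 and 14 CPM (-0.58, SE 0.12) beside LMCD1-AS1 (2.05 and 1.53 against 0.706 and 0.325 CPM). Around MYRF-AS1, the membrane-bound transcription factor gene MYRF (-0.28, SE 0.07) and the lipase gene DAGLA (-0.81, SE 0.12, with 509 shared exonic bases) both fell, MYRF not without SAMD9 replicate 2 (-0.18). NALT1, an RNA starting near NOTCH1, had 1.26 and 2.29 against 0.202 and 0.520 CPM, while NOTCH1 was not called (0.17, SE 0.08) and stood at -0.021 under total-count scaling.

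**Figure D5:**
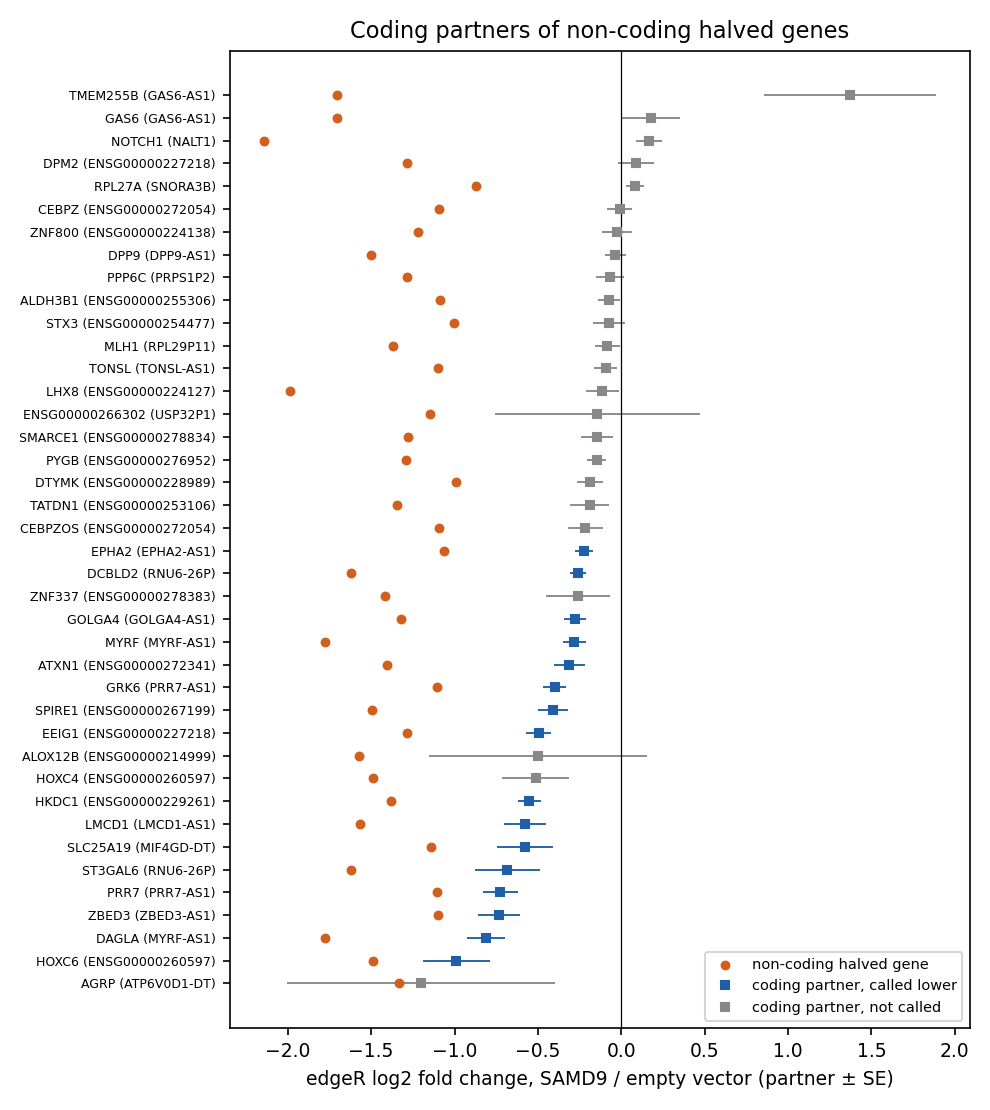
Log2 fold change (SAMD9 over empty vector, edgeR, horizontal) of non-coding halved genes (orange) and of their tested coding partners (squares, bars ± SE), 1 partner per line with the halved gene in brackets. The 16 partners called lower are blue and the 24 not called are grey; none is called higher.

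Some coding halved genes overlap an antisense RNA whose edgeR call as lower did not hold in every alternative. BDNF-AS, which shares 701 exonic bases with BDNF, had a log2 fold change of -1.64 (SE 0.60), and CXXC5-AS1, which shares 11 with CXXC5, one of -3.11 (SE 0.80). Both RNAs averaged under 1.5 CPM with empty vector, and neither call held with DESeq2 (-1.66 and -3.24) or without empty vector replicate 2 (-0.95 and -2.41). That of BDNF-AS was also lost with a replicate block (-1.55), without SAMD9 replicate 1 (-1.94) and without SAMD9 replicate 2 (-1.42). In all, 33 halved genes share exonic bases with another expressed gene.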

How the data were processed

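RNA of 2 empty vector and 2 SAMD9 libraries was sequenced, and groups and replicate numbers come from the sample titles. Each deposited file gives raw counts per gene, and the authors' CPM and RPKM computed from them. The tools named, per the submitters' processing notes, are STAR (2.5.1a), featureCounts (1.4.6-p5) of Subread and bcl2fastq, and the build is GRCh38. Neither their parameters nor the annotation release or strand setting is given in the sources used here. Halved genes were chosen on the deposited CPM. Symbols and biotypes came from a gene name table and GENCODE 29 (55297 of 58812 identifiers matched).

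Counts were fitted with edgeR 4.0.16 in R 4.3.3 (filterByExpr with minimum count 10 and minimum total count 15, TMM factors of 1.07, 1.07, 0.941 and 0.932, quasi-likelihood F-test without covariates), and p-values were adjusted by Benjamini-Hochberg over all 19814 genes tested, with a threshold of 0.05. The fit was tested on simulated data. Library totals are given in the report, and genes near 1 CPM rest on few reads, so their ratios are imprecise. Alternatives were DESeq2 1.42.0, total-count scaling, no filter, a replicate block, other CPM minimums, group means and leaving out each library.

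The genes and lists were chosen with earlier results of these data known. Values per library were set to be given for SAMD9, the 20 coding and 10 other genes of lowest ratio, the 8 of highest level and 3 on each side of the threshold, and for list genes outside the group the 3 of lowest p. Some halved genes are not reported here. Other named genes were chosen for their function after their values were seen. For the lists not described in full elsewhere, genes outside the group tested, higher and lower are given in brackets. These lists were TGF-beta and SMAD targets (19, 6 and 7), Wnt targets (16, 9 and 3) and the interleukin 6 family (11, 6 and 1). Further lists were hedgehog and cilium (20, 4 and 5) and protocadherins and cadherins (18, 6 and 4). Marker lists were epithelium (10, 4 and 0), leukocytes (4, 0 and 0) and fibroblasts and endothelium (2, 0 and 0).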

Additional observations from a re-analysis of the deposited data

How the results depend on the processing

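No halved gene changed the sign of its log2 fold change in any of the 8 other fits. The rule made that all but certain, since it used the same libraries. Of the 195, 165 were called lower in edgeR, beside 12.2% of all tested genes. The number was 186 under total-count scaling, 136 with DESeq2 and 167 without the filter, and the shares of all genes in those fits are not given. The same libraries chose the genes, so nothing about them can be read from these counts. With 1 library left out, their median log2 fold change lay between -1.15 and -1.23. The number of genes that meet the rule depended on how it was set: 81 with TMM-normalised CPM, 304 at a minimum of 0.5 CPM, 79 at 5 CPM and 501 by group means. It lay between 353 (without SAMD9 replicate 2) and 481 (without SAMD9 replicate 1) with 1 library left out, and was 452 without empty vector replicate 1 and 454 without empty vector replicate 2, where fewer values have to meet it. Of 257 tested list genes outside the group, 64 rose and 49 fell. Total-count scaling gave 83 lower, and leaving out a library between 31 and 48, the lowest without SAMD9 replicate 2. Values that changed sign were NFAT5 (-0.060), NOTCH1 (-0.021) and PPP3CB (-0.16) under total-count scaling, PPP3CB (-0.13) without SAMD9 replicate 2 and PPP3CC (0.14) without empty vector replicate 1, none of them called in the fit reported. With 1 library left out, PPP3CB ranged up to 0.19 and PPP3CC down to -0.25. The causes were not tested.

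The replicate numbers pair the libraries only by number: deviations of same-numbered libraries correlated at 0.0042 over 19814 genes. With the number as a replicate block, 158 halved genes were called lower, again a count from which nothing can be read, since the same libraries chose the genes.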
